A study of Caenorhabditis elegans with 12 samples.

Results

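The comparison described here sets CF1038, a Caenorhabditis elegans strain with the daf-16(mu86) mutation, against TU3311, a strain with a sid-1 transgene, when both were fed bacteria with the empty RNAi vector L4440. It holds 6 of the 12 RNA sequencing samples of the series, 3 libraries of each strain, chosen by their strain and feeding labels. All were whole hermaphrodites aged 5 days. The daf-16(mu86) vector libraries carry the label numbers 1, 3 and 5, and the TU3311 vector libraries carry 7, 9 and 11. The other 6 libraries, from daf-16(mu86) fed bcat-1 RNAi (2, 4 and 6) and from TU3311 fed daf-7 RNAi (8, 10 and 12), entered the statistical fit to estimate the spread.

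DAF-16 is the FOXO transcription factor of the worm. When insulin-like signalling through the receptor DAF-2 is low, DAF-16 enters the nucleus and raises genes of stress resistance, metal binding, antimicrobial defence and fat metabolism, and the mu86 allele is a deletion in its gene. TU3311 carries SID-1, a channel for double-stranded RNA, as a transgene that the labels link to neuronal RNAi and that is known to be driven by the unc-119 promoter, which is active in neurons. Neither strain is the unmodified wild type. The comparison therefore includes the daf-16 allele, the transgene and any other difference between the strains, and these cannot be told apart. Strain also coincides with the label numbers, 1 to 6 against 7 to 12, and with a code in the sample titles. The sample descriptions carry 1 code for all 12, so the labels do not settle whether the strains were sequenced together.

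The 6 vector libraries held 30130249 to 43252515 counts, and 13542 to 14693 genes reached 10 counts in daf-16(mu86) against 15755 to 16726 in TU3311. Library 7 stood apart. On the first principal component of log2 counts-per-million (CPM), which carried 69.5% of the variance, library 7 lay at 115.3, libraries 9 and 11 at 18.4 and 30.4, and the daf-16(mu86) libraries between -71.5 and -41.2. Library 7 correlated with libraries 9 and 11 at 0.959 and 0.961 across genes, whereas libraries 9 and 11 correlated at 0.987. Ribosomal RNA genes took 0.106% to 0.293% of counts in daf-16(mu86) and 1.28% to 3.18% in TU3311. The part of these differences in the results below was not tested, and counts are given with library 7, without it, and without it and library 8.

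Of the 4 genes that the strain and feeding labels name, daf-16 itself was measured at 85.7, 87.5 and 77.4 CPM in daf-16(mu86) and at 185, 210 and 191 CPM in TU3311. Every mutant library lay below every TU3311 library, with a log2 difference of -1.23 ± 0.19 (SE, n = 3 per strain) and an adjusted p of 0.00581 by edgeR's quasi-likelihood test. The call remained without library 7 (adjusted p = 0.00565) and in every other setting except without library 1 (adjusted p = 0.070). The annotated gene H36N01.5 overlaps daf-16 on the other strand. The table gives 1 count per gene, so it does not show from which exons the remaining daf-16 reads came.

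The sid-1 gene was at 122, 122 and 117 CPM in daf-16(mu86) and at 167, 248 and 195 CPM in TU3311. The libraries did not overlap, but the log2 difference of -0.75 ± 0.22 missed the threshold with all libraries (adjusted p = 0.0520) and without library 7 (adjusted p = 0.0542). Without libraries 7 and 8 it passed (adjusted p = 0.00369). The TGF-beta ligand gene daf-7, which is known for expression in sensory neurons, was at 1.5, 2.55 and 1.83 CPM in daf-16(mu86) and at 12.08, 8.38 and 6.21 CPM in TU3311. It was lower by a log2 difference of -2.17 ± 0.45 (adjusted p = 0.0236), a call that was lost without library 7 (log2 difference -1.88, adjusted p = 0.0664). Without libraries 7 and 8 daf-7 was called, at a log2 difference of -1.87 (adjusted p = 0.0426). For this gene the TU3311 libraries fed daf-7 RNAi, 8, 10 and 12, were at 115.5, 31.4 and 136.5 CPM. They entered the fit of all libraries, so its SE and adjusted p rest in part on them. The branched-chain aminotransferase gene bcat-1 averaged 140 ± 10.2 CPM in daf-16(mu86) and 190 ± 45.7 CPM in TU3311 (SD, n = 3 per strain) and was not called (adjusted p = 0.135).

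Of 16618 genes tested, 1081 (6.5%) were lower and 22 (0.132%) were higher in daf-16(mu86) at an adjusted p under 0.05, together 6.64%, and 1023 and 18 of these differed by at least 2-fold. Without library 7, 241 genes (1.43%) were lower and 11 (0.0655%) were higher, and 226 (1.36% of all genes) and 8 (0.0481%) of them were also called with all libraries. Without libraries 7 and 8 the counts rose to 2589 (15.7%) lower and 2605 (15.8%) higher, with 1046 of the 1081 and 21 of the 22 among them. The median log2 difference of all genes tested was -0.38 with all libraries, -0.21 without library 7 and -0.19 without libraries 7 and 8. Differences of single genes are read against that median, because the scaling of libraries moves all genes together. With relative log expression factors the median moved up by 0.21 to -0.16 and 242 genes were lower, and with upper-quartile factors it moved by -0.33 to -0.71 and 1816 genes were lower.

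**Figure D1:**
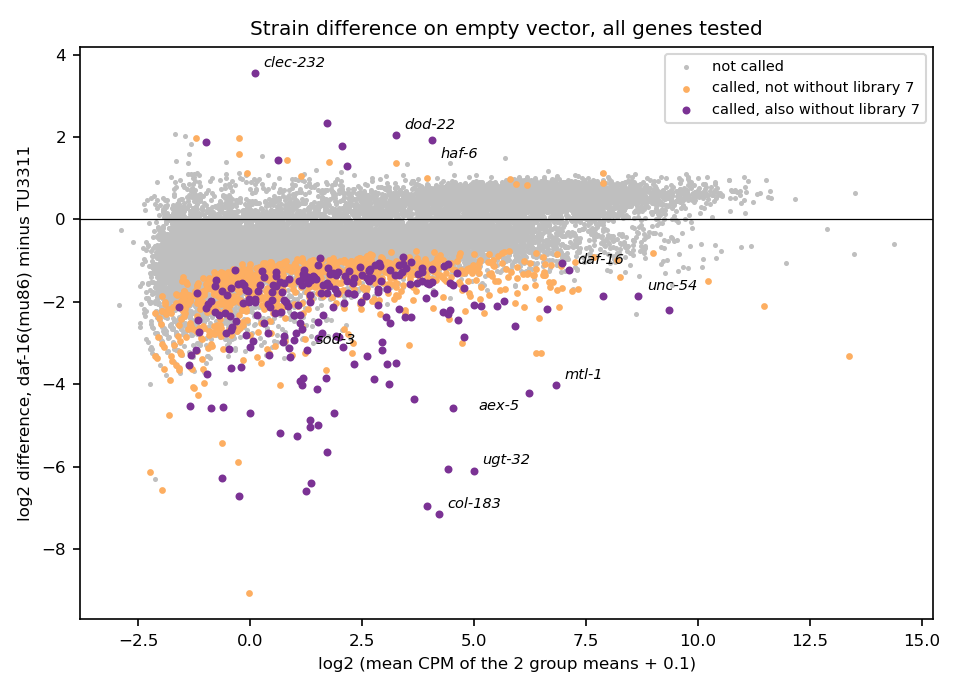
Log2 difference between the strains on empty vector (y axis, daf-16(mu86) minus TU3311) against log2 of the mean CPM plus 0.1 (x axis) for 16618 genes. Grey points were not called, orange points were called with all libraries only, and purple points were called again without library 7; most called genes lie below 0.

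The 226 genes lower in both fits had a median log2 difference of -1.99. The vector libraries of all 226 did not overlap between the strains, a pattern that 30.7% of all genes tested had with daf-16(mu86) below and 25.8% with it above. In 52.7% of the 226, all 6 libraries of daf-16(mu86), RNAi libraries included, lay below all 6 of TU3311. This held for 5.53% of all genes and for 18% of the 5101 genes whose vector libraries were already separate in that direction. Calls on the vector libraries fix part of this pattern, so nothing is read from it. Of the 8 genes higher in both fits, 3 lay above in all 6 libraries, beside 2.54% of all genes and 9.84% of the 4287 whose vector libraries lay above.

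Genes higher in daf-16(mu86) were few. The ABC transporter gene haf-6, known in the worm for a role in RNAi efficiency, was at 26.5, 26.2 and 25.8 CPM in daf-16(mu86) and at 6.52, 6.8 and 7.19 CPM in TU3311. Its log2 difference was 1.94 ± 0.19 (adjusted p = 0.000426, and 0.000418 without library 7). It kept the call in all 17 other settings, and the 3 bcat-1 RNAi libraries of the mutant were also high, at 22.6 to 23.9 CPM. The gene lies on chromosome I at 1162880 to 1175809 (WBcel235, minus strand) and overlaps Y48G8AL.7 on the other strand, from which its reads cannot be told apart.

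The gene dod-22, which encodes a CUB-like domain protein of innate immunity and is known as lowered by DAF-16, was at 19.3, 15.5 and 11.2 CPM in daf-16(mu86) and at 3.67, 4.35 and 3.07 CPM in TU3311. All mutant vector libraries were above all TU3311 vector libraries (log2 difference 2.05 ± 0.27, adjusted p = 0.00192, and 0.00467 without library 7). In the mutant fed bcat-1 RNAi it was at 3.68 to 4.88 CPM, within or just above the TU3311 vector range. The C-type lectin gene clec-232 was low in both strains, at 1.19, 2.11 and 2.11 CPM against 0.0675, 0.275 and 0.116 CPM. It differed by 3.55 ± 0.47 on the log2 scale (adjusted p = 0.00207, and 0.00501 without library 7).

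T25B9.5 was at 4.15, 5.2 and 6.59 CPM in daf-16(mu86) and at 1.15, 0.525 and 1.49 CPM in TU3311 (log2 difference 2.33 ± 0.36, adjusted p = 0.00619). The lectin gene clec-74 was at 5.42, 6.76 and 6.76 CPM against 2.74, 1.2 and 1.51 CPM (log2 difference 1.79 ± 0.43, adjusted p = 0.0329), but at only 0.962 to 1.16 CPM in the mutant fed bcat-1 RNAi. Y48E1B.8, which overlaps clec-145 on the other strand, was at 9.23, 4.68 and 4.65 CPM against 3.35, 2.33 and 1.81 CPM (log2 difference 1.3 ± 0.34, adjusted p = 0.0410). The calls of clec-74 and Y48E1B.8 held in 9 and 8 of the 17 other settings, against 16 for T25B9.5. The antimicrobial peptide gene nlp-33 and the kinesin gene klp-15 were among the higher genes that lost the call without library 7, with adjusted p of 0.123 and 0.134 there.

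Genes lower in daf-16(mu86) included several that were abundant in TU3311 and close to absent from the mutant. The cuticle collagen gene col-183 had the largest difference among the genes ranked here. It was at 0.346, 0.0260 and 0.442 CPM in daf-16(mu86) and at 75.4, 16.3 and 18.5 CPM in TU3311, with a log2 difference of -7.15 ± 1.14 (adjusted p = 0.00899, and 0.0485 without library 7). The gene overlaps F02D10.10 on the other strand, and the call was lost without library 1 or 5. The UDP-glucuronosyltransferase gene ugt-32, of a family that conjugates small molecules for disposal, was at 0.808, 0.442 and 1.53 CPM against 121, 42.3 and 24.6 CPM. It differed by -6.10 ± 0.76 (adjusted p = 0.00153, and 0.00545 without library 7). In both genes library 7 was the highest, and libraries 9 and 11 alone were still far above every mutant library.

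The gene aex-5, which encodes a proprotein convertase known for its role in the defecation cycle, was at 8.08, 7.02 and 7.71 CPM in daf-16(mu86) and at 182.7, 99.2 and 142 CPM in TU3311. Its log2 difference of -4.22 ± 0.30 was called in all 17 other settings, and its adjusted p was 3.06e-05 with all libraries. The mutant RNAi libraries were at 7.77 to 9.64 CPM and the TU3311 RNAi libraries at 110 to 187 CPM. It lies on chromosome I at 14850052 to 14855827 (minus strand) and overlaps str-245 and maph-1.1 on the other strand. Its neighbour on the same strand, 73 bases away, is unc-54, the major myosin heavy chain gene of body wall muscle, which was also lower, at 205, 186 and 139 CPM against 781, 644 and 489 CPM (log2 difference -1.86 ± 0.34, adjusted p = 0.0140). The 3' end of unc-54 is often part of worm transgenes, and TU3311 carries a transgene. Gene counts do not show whether reads assigned to aex-5 in TU3311 came from the gene itself, so its strain difference cannot be told apart from such reads.

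The SCP-like extracellular protein genes scl-24 and scl-20 were nearly without reads in the mutant. For scl-24 the 3 mutant libraries held 1, 1 and 2 counts and the TU3311 libraries 377, 44 and 165. Scaled for library size this is a ratio of 108, with a 95% exact interval from 41.9 to 398 that covers counting error only. For scl-20 the counts were 2, 0 and 3 against 314, 226 and 85, a ratio of 92.1 with an interval from 39.3 to 285. Both were called with all libraries (adjusted p = 0.00274 and 0.00118) and without library 7 (0.00283 and 0.00143). No gene had at most 3 counts in each library of 1 strain and at least 2 CPM in each library of the other.

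Among the other lower genes, F20E11.17 was at 0.192, 0 and 0.578 CPM in daf-16(mu86) and at 63.1, 10.9 and 17.7 CPM in TU3311 (log2 difference -6.95 ± 1.12, adjusted p = 0.00932). F56D6.9 was at 0.731, 0.364 and 0.815 CPM against 79.8, 17.5 and 28.1 CPM (-6.06 ± 0.85, adjusted p = 0.00353). Its neighbour F56D6.8, 731 bases away on chromosome IV, differed by -4.58 ± 0.65 (adjusted p = 0.00331). Y68A4A.13 was even among the mutant libraries, at 1.11, 1.17 and 1.16 CPM, and stood at 35.4, 15.5 and 20.3 CPM in TU3311 (-4.37 ± 0.45, adjusted p = 0.000491).

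The remaining genes of the 15 with the largest lower differences were W01C9.2, ZK355.3, fipr-24, D1022.3, icmt-1 and Y6G8.2, with log2 differences from -5.65 to -4.12. The fungus-induced family gene fipr-24 and icmt-1, a predicted methyltransferase of prenylated proteins, were at 0.169 ± 0.08 and 0.266 ± 0.11 CPM in the mutant against 5.31 ± 4.75 and 6.82 ± 5.34 CPM in TU3311 (SD, n = 3 per strain). In all 15 genes every library of daf-16(mu86), with or without RNAi, lay below every library of TU3311, which the choice of genes had fixed for the vector libraries. Several genes with large differences lost the call without library 7, among them idpc-2 (adjusted p = 0.223), C37A5.3 (0.109), D1086.3 (0.0611) and the ribosomal RNA gene rrn-3.1 (0.139).

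**Figure D2:**
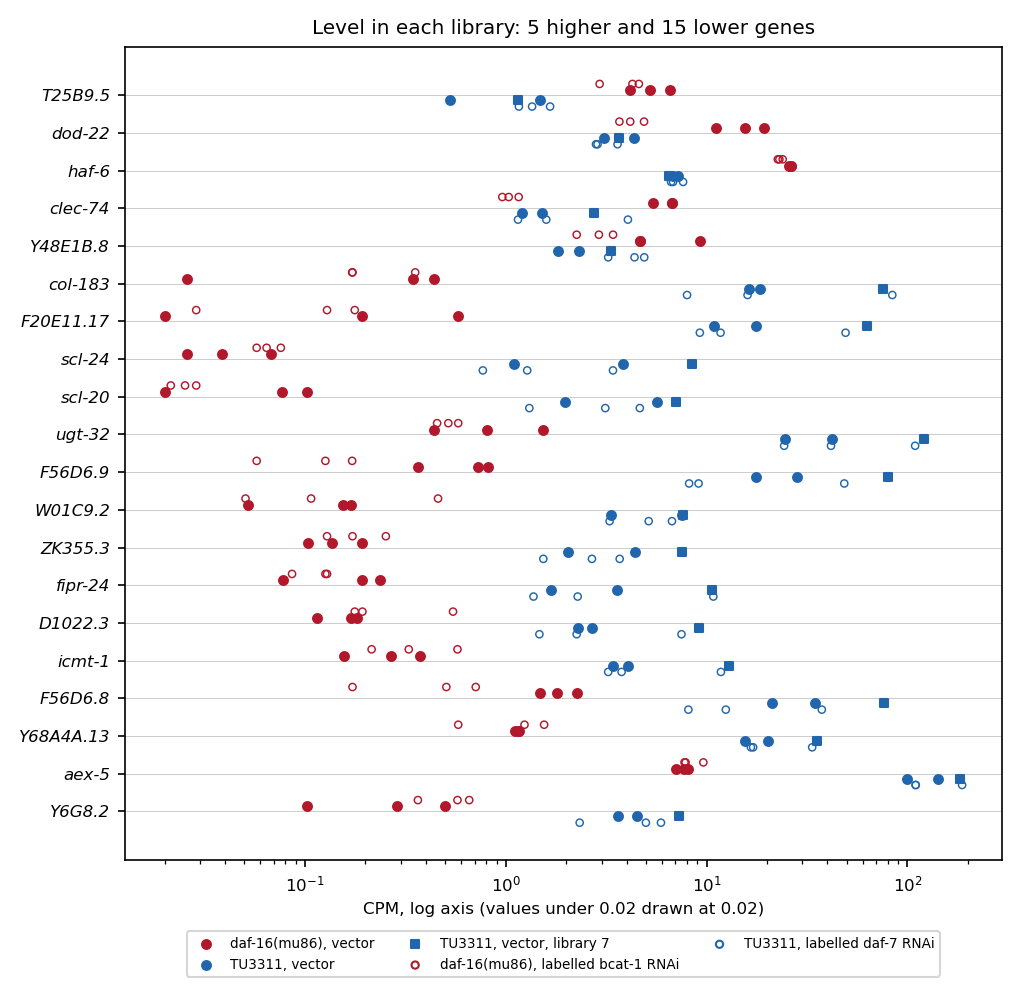
CPM on a log axis in every library for the 5 higher and 15 lower genes. Filled red points are daf-16(mu86) on vector, filled blue points TU3311 on vector with library 7 as a square, and open points the RNAi libraries of the same strains; values under 0.02 are drawn at 0.02, and the 15 lower genes show no overlap of strains.

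Genes known as raised by DAF-16 differed in 1 direction where they were called. Of 29 tested, 8 were lower and none was higher, where 6.5% of all genes were lower; 21 of the 29 had an unadjusted p under 0.05, beside 44.1% of all genes. By DESeq2 14 were lower and 0 higher, beside 10.1% of all genes lower, and by limma voom with quality weights 16 and 0, beside 20.1%. The 3 mutant vector libraries all lay below the 3 of TU3311 for 20 of the 29 genes, against 30.7% of all genes, and all 6 below all 6 for 12, against 5.53%. The median log2 difference of the 29 was -1.1 with all libraries and -0.79 both without library 7 and without libraries 7 and 8, beside -0.38, -0.21 and -0.19 for all genes. Without library 7, 4 of the 8 remained, and without libraries 7 and 8, 13 of 29 were lower, beside 15.7% of all genes.

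The metallothionein gene mtl-1, which binds heavy metals, was at 11.5, 19.2 and 8.63 CPM in daf-16(mu86) and at 284, 180 and 180 CPM in TU3311. The log2 difference was -4.03 ± 0.49 (adjusted p = 0.00137, and 0.00591 without library 7), and it was called in all 17 other settings. The mitochondrial manganese superoxide dismutase gene sod-3, a widely used reporter of DAF-16, was at 0.423, 0.416 and 0.543 CPM against 7.02, 3.00 and 2.54 CPM (-3.18 ± 0.47, adjusted p = 0.00440, and 0.00545 without library 7). It overlaps C08A9.3 and lido-1 on the other strand. The ferritin gene ftn-1, which stores iron, was at 2.19, 3.04 and 5.3 CPM against 22.6, 22 and 9.65 CPM (-2.36 ± 0.42, adjusted p = 0.0126, and 0.0243 without library 7).

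The transhydrogenase gene nnt-1, whose mitochondrial product makes NADPH, was at 3.58, 2.81 and 5.26 CPM in daf-16(mu86) and at 34.9, 15.8 and 9.68 CPM in TU3311 (-2.38 ± 0.46, adjusted p = 0.0173, and 0.0331 without library 7). It overlaps C15H9.9 on the other strand. These 4 genes did not overlap between the strains in the vector libraries. The other 4 called members lost the call without library 7, and also without library 1, 3 or 5 of the mutant, but kept it without libraries 7 and 8. The lysozyme gene lys-7 averaged 1066 ± 126 CPM in the mutant and 4610 ± 3390 CPM in TU3311 (SD, n = 3 per strain), and its adjusted p was 0.0393 with all libraries, 0.152 without library 7 and 0.00329 without libraries 7 and 8. For the saposin-like gene spp-12, the small heat shock protein gene hsp-12.3 and the glyceraldehyde phosphate dehydrogenase gene gpd-2, the adjusted p without library 7 was 0.0673, 0.147 and 0.1404, and without libraries 7 and 8 it was 0.0120, 0.0198 and 0.0135. Reads of gpd-2 and its near-identical copy gpd-3 may be shared.

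The 21 members that were not called ran from -1.91 for dod-3 to 0.20 for sip-1, which had the only positive value of the 29 and turned to between -0.11 and -0.03 under 6 other settings. The catalase genes ctl-1 and ctl-2 had log2 differences of -0.97 ± 0.41 and -1.06 ± 0.41 (adjusted p = 0.0967 and 0.0878). Of 13 genes known as lowered by DAF-16, 1, dod-22, was higher and 0 were lower, beside 0.132% and 6.5% of all genes. An unadjusted p under 0.05 was found for 2, beside 44.1% of all genes. DESeq2 called 2 higher and 0 lower, beside 19.3% and 10.1% of all genes. Voom called 2 higher and 1 lower, beside 17.7% and 20.1%. Without libraries 7 and 8, edgeR also called 2 higher and 1 lower, beside 15.8% and 15.7%. The median log2 difference of the 13 was -0.01, which became 0.20 with relative log expression factors. The insulin gene ins-7, known to be lowered by DAF-16 in the intestine, was at 23.9 ± 1.82 CPM in the mutant and 23.4 ± 16.8 CPM in TU3311 (adjusted p = 0.968). Of the 6 vector libraries, library 7 was the highest for this gene. Without libraries 7 and 8 ins-7 was higher in the mutant, by 0.77 on the log2 scale (adjusted p = 0.0273), the only setting of the 17 that called it.

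**Figure D3:**
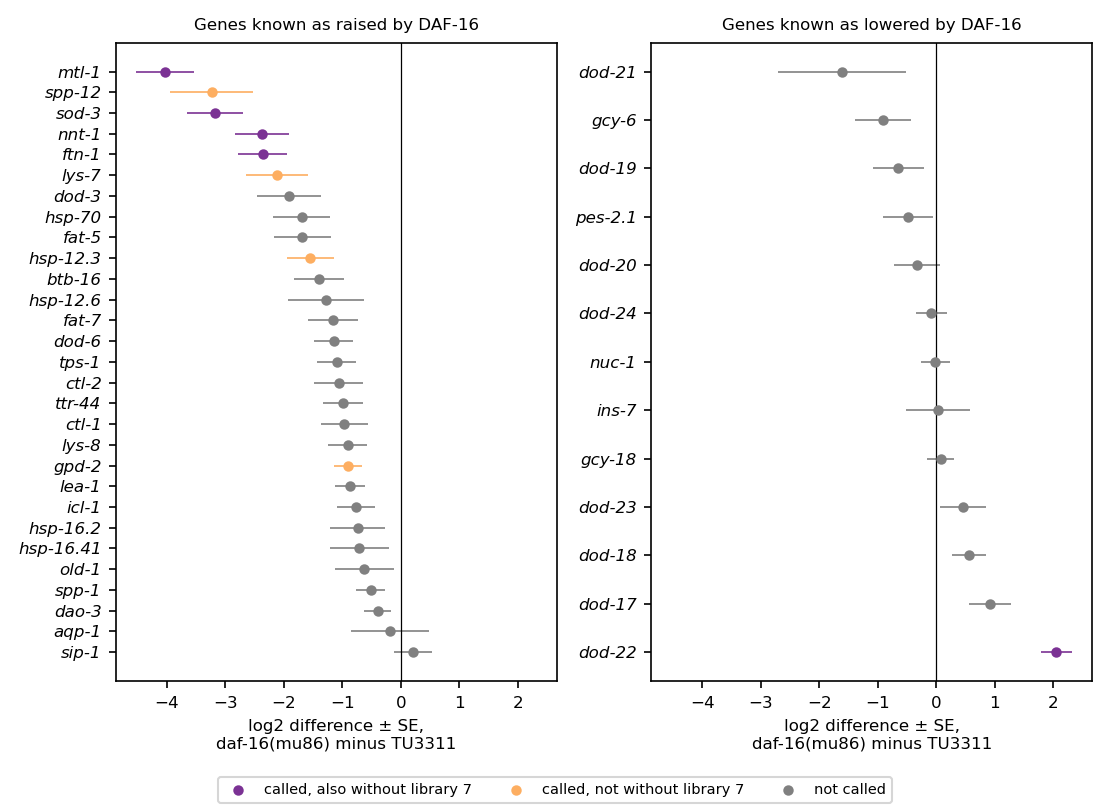
Log2 difference with SE for 29 genes known as raised by DAF-16 (left) and 13 known as lowered by it (right), daf-16(mu86) minus TU3311 on vector. Purple members were called with all libraries and without library 7, orange members only with all libraries, and grey members were not called. On the left 28 of 29 points lie below 0, where the median of all genes tested was itself -0.38.

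In the lists of insulin-like peptides and signalling components, which leave out daf-16 itself, 5 peptide genes and 1 component were called with all libraries. Of 32 insulin-like peptide genes tested, 5 were lower (15.6%, beside 6.5% of all genes) and 0 higher, with a median log2 difference of -1.2. Of the 5, 4 were called again without library 7, and without libraries 7 and 8, 13 of 31 were lower and 1 higher. The peptide gene ins-22 was at 0.577, 0.754 and 0.645 CPM in daf-16(mu86) and at 3.91, 4.53 and 6.23 CPM in TU3311 (-2.88 ± 0.36, adjusted p = 0.00148), and kept the call in all 17 other settings. The genes ins-27 and ins-3 differed by -2.50 ± 0.39 and -1.24 ± 0.26 (adjusted p = 0.00623 and 0.0249). In the mutant fed bcat-1 RNAi, ins-3 was at 2.11 to 3.74 CPM, around the 2.95 to 3.30 CPM of TU3311 on vector. Of 23 signalling components, the kinase gene akt-2 was lower (-1.2 ± 0.32, adjusted p = 0.0425, and 0.142 without library 7), and the median of the list was 0.44. Without libraries 7 and 8, 8 of the 23 were higher and 3 lower, beside 15.8% and 15.7% of all genes.

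Detoxification and defence genes moved down in part. Of 62 UDP-glucuronosyltransferase genes, 17 were lower (27.4%, beside 6.5% of all genes) and 0 higher, with a median of -0.89, and 5 of the 17 were called again without library 7. Besides ugt-32 these included ugt-66, at 0.731, 1.12 and 0.713 CPM in daf-16(mu86) against 20.4, 11.4 and 5.91 CPM in TU3311 (-3.86 ± 0.53, adjusted p = 0.00288), and ugt-27 (-3.85 ± 0.67, adjusted p = 0.0110). Of 68 cytochrome P450 genes 7 (10.3%) were lower, and 1, cyp-35B1, was called again without library 7 (3.08, 2.47 and 2.14 CPM against 24.8, 10.9 and 8.51 CPM). Of 44 glutathione S-transferase genes 5 (11.4%) were lower, and none of them without library 7. By edgeR no member of these 3 families was higher with all libraries, beside 0.132% of all genes. For the 3 families in this order, DESeq2 called 0, 4 and 2 higher, beside 19.3% of all genes, and 21, 12 and 8 lower, beside 10.1%. Voom called 0, 4 and 1 higher, beside 17.7% of all genes, and 27, 17 and 16 lower, beside 20.1%. Members of such families share sequence, so reads of close paralogs may have been split between them.

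Of 37 lysozyme and saposin-like genes, whose products lyse bacteria, 10 (27%) were lower, beside 6.5% of all genes, and 0 higher. Their median was -0.82, beside -0.38 for all genes. DESeq2 called 11 lower, beside 10.1% of all genes, and voom 16, beside 20.1%, and neither called any higher. The saposin-like genes spp-20 and spp-2 were called again without library 7, and spp-2 was at 15.5, 21.7 and 23.9 CPM in daf-16(mu86) against 125, 56.2 and 61.7 CPM in TU3311 (-1.99 ± 0.39, adjusted p = 0.0177). Of 138 C-type lectin genes 12 were lower, a share of 8.7% that is near the 6.5% of all genes. In the other direction 2 were higher, beside 0.132% of all genes. Without library 7, 2 of the 12 lower genes and both higher genes were called again. The lower lectin genes clec-76 and clec-40 differed by -2.32 ± 0.43 and -1.71 ± 0.34 (adjusted p = 0.0140 and 0.0192), and in the mutant fed bcat-1 RNAi clec-40 was at 0.945 to 1.39 CPM, beside 1.12 to 1.37 CPM in TU3311 on vector. In the intracellular pathogen response, 4 of 43 genes (9.3%) were lower, a share near the 6.5% of all genes. Of these the Skp1-related gene skr-5 (-2.67 ± 0.53, adjusted p = 0.0190) was called again without library 7.

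In lipid and energy metabolism, 4 of 31 lipase and fat breakdown genes (12.9%, beside 6.5% of all genes) were lower, and the lipase gene lipl-2 was called again without library 7 (3.19, 5.85 and 2.68 CPM against 16, 10.7 and 11.1 CPM, log2 difference -1.68 ± 0.33). The fatty acid binding protein gene lbp-8, known from the worm as a carrier of a signal from lysosome to nucleus, was at 0.231, 0.728 and 0.306 CPM in daf-16(mu86) and at 3.10, 3.60 and 3.33 CPM in TU3311 (-2.94 ± 0.47, adjusted p = 0.00645, and 0.00732 without library 7). Of 23 genes of glycolysis and gluconeogenesis 5 (21.7%) were lower with a list median of 0.10, and none of the 5 was called without library 7. Among 212 nuclear hormone receptor genes 6 were lower, a share of 2.83% beside 6.5% of all genes. Of these nhr-114, known for protecting the germline on some diets, was at 9.19, 9.07 and 7.64 CPM against 28.5, 21.9 and 23.3 CPM (-1.51 ± 0.22, adjusted p = 0.00353, and 0.00545 without library 7).

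Some genes of neurons and muscle were lower in the mutant. In whole animals, fewer cells of a type and less RNA per cell cannot be told apart. Of 35 synaptic and neuronal genes 7 were lower (20%, beside 6.5% of all genes) and 0 higher, with a median of -0.81, and 1, the active zone gene cla-1, was called again without library 7. It was at 6.62, 7.25 and 8.49 CPM in daf-16(mu86) and at 24.3, 18.5 and 20 CPM in TU3311 (-1.49 ± 0.25, adjusted p = 0.00896), but at 26.9 to 40 CPM in the mutant fed bcat-1 RNAi. Of 70 neuropeptide genes 6 were lower, a share of 8.57% that is near that of all genes, with flp-8 and flp-15 called also without library 7. In 52 of the 70 all 3 mutant vector libraries lay below TU3311, beside 30.7% of all genes. Of 12 touch receptor neuron genes 4 (33.3%) were lower, and of 38 muscle sarcomere genes 6 (15.8%). None of the 4 was called again without library 7, and of the 6 only unc-54 was. All 6 mutant libraries lay below all 6 of TU3311 in 3 neuropeptide, 2 synaptic and neuronal, 0 touch receptor and 10 muscle genes. This held for 5.53% of all genes. In each of these lists library 7 had the highest level of the 6 vector libraries.

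Further genes called with and without library 7 came from chromatin, development and protein degradation lists. The linker histone gene hil-1 was at 6.73, 7.56 and 9.21 CPM in daf-16(mu86) and at 52, 29.7 and 25.6 CPM in TU3311 (-2.19 ± 0.31, adjusted p = 0.00311, and 0.00323 without library 7). The homeobox gene ceh-27 and the patched-related gene ptr-9 differed by -1.39 ± 0.28 and -2.28 ± 0.40 (adjusted p = 0.0202 and 0.0117). Among 356 F-box and MATH-BTB genes, which encode adaptors of protein degradation in a large and fast-changing family, 17 were lower, a share of 4.78% beside 6.5% of all genes. Of these fbxa-64 was even within strains apart from library 7, at 7.04, 6.78 and 6.56 CPM against 18.3, 38.9 and 39.8 CPM (-2.25 ± 0.34, adjusted p = 0.00519, and 0.000418 without library 7). Without libraries 7 and 8, 123 of 354 members were lower and 14 higher, beside 15.7% and 15.8% of all genes.

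The astacin protease gene nas-37, known for its part in shedding the old cuticle, was at 6.92, 9.31 and 7.44 CPM in daf-16(mu86) and at 28.2, 20 and 20.8 CPM in TU3311 (-1.54 ± 0.27, adjusted p = 0.0112). The cathepsin B-like gene cpr-2 was at 0.5, 0.338 and 0.747 CPM against 0.967, 3.13 and 3.35 CPM (-2.24 ± 0.50, adjusted p = 0.0273), and at 4.80 to 10.6 CPM in the mutant fed bcat-1 RNAi. Here library 7 was the lowest of the TU3311 libraries. Of 152 cuticle collagen genes 6 were lower and 0 higher, a lower share of 3.95% beside 6.5% of all genes. The list median was -1.28 with all libraries and -1.25 without library 7, beside -0.38 and -0.21 for all genes. Relative to the mean of all 12 libraries, the list stood at -1.16, -0.10 and -1.50 in daf-16(mu86). In libraries 7, 9 and 11 of TU3311 it stood at 0.43, -0.21 and 0.78. Without library 7, 3 of the 6 were called again, namely col-183, col-116 and col-50. The mutant libraries held 0, 0 and 1 counts of col-50 and the TU3311 libraries 131, 22 and 38, a scaled ratio of 141 with an interval from 24.96 to 5588, and its call was lost in 4 of 17 settings, in 1 of them because the stricter filter removed it.

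Germline, oocyte, proteasome and ribosomal protein genes had positive median differences, and whether they were called depended on the test and on libraries 7 and 8. With all libraries none of 80 cytosolic ribosomal protein genes, 33 proteasome genes, 39 germline proliferation and meiosis genes or 31 oocyte and eggshell genes was called by edgeR, while 75, 24, 34 and 21 of them had an unadjusted p under 0.05, beside 44.1% of all genes. With all libraries DESeq2 called 75, 27, 34 and 23 higher, beside 19.3% of all genes, and voom 73, 30, 33 and 23, beside 17.7%. Without library 7 alone, edgeR called only 11 (0.0655%) of all genes tested higher. Without libraries 7 and 8 the edgeR counts were 70, 30, 34 and 24 higher, beside 15.8% of all genes, and 1, 0, 1 and 0 lower. In 74 of the 80 ribosomal protein genes all 6 libraries of daf-16(mu86) lay above all 6 of TU3311, which held for 2.54% of all genes. In the other 3 lists that count was 0, while the 3 mutant vector libraries lay above the 3 of TU3311 in 32 proteasome, 37 germline and 26 oocyte genes, beside 25.8% of all genes.

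The member nearest its list's median shows the pattern by library. The ribosomal protein gene rps-11 was at 1318, 1331 and 1308 CPM in daf-16(mu86) and at 701, 908 and 1018 CPM in TU3311 (log2 difference 0.59 ± 0.20, adjusted p = 0.0742, and 0.0160 without libraries 7 and 8). The germline gene nos-3, a translational regulator, was at 383, 346 and 356 CPM against 118, 278 and 223 CPM (0.81 ± 0.34, adjusted p = 0.0962, and 0.0150 without libraries 7 and 8). The chitin synthase gene chs-1, which makes the eggshell, was at 797, 708 and 645 CPM against 189, 520 and 423 CPM (0.93 ± 0.39, adjusted p = 0.0964, and 0.0153 without libraries 7 and 8). Without library 7 alone, the adjusted p of rps-11, nos-3 and chs-1 was 0.253, 0.3055 and 0.3031. In all 3 genes library 7 was the lowest, and the strains did not overlap on vector.

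The 58 sperm genes tested had a median log2 difference of -2.53 with all libraries and -1.59 without library 7. Of these genes 5 were lower (8.62%, beside 6.5% of all genes) and 0 higher, and none of the 5 was called without library 7. Relative to the mean of all 12 libraries the list median was at -1.97, -1.07 and -0.49 in daf-16(mu86), and at 1.84 in library 7, -0.21 in library 9 and 0.53 in library 11. The 21 intestine genes lay on both sides of 0, from -1.65 to 0.54 with a median of -0.04. With all libraries 3 were lower (14.3%, beside 6.5% of all genes) and 0 higher. These were the gut esterase gene ges-1, the aspartyl protease gene asp-3 and the P-glycoprotein gene pgp-1, with log2 differences of -1.65, -1.39 and -1.12, and none was called without library 7. Both DESeq2 and the fit without libraries 7 and 8 called 4 intestine genes higher and 3 lower. Of all genes, DESeq2 called 19.3% higher and 10.1% lower, and the fit without libraries 7 and 8 called 15.8% and 15.7%. The 6 vitellogenin genes, which encode yolk proteins, had no called member and a median of -0.15, which became 0.31 without library 7 and 0.08 with relative log expression factors.

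**Figure D4:**
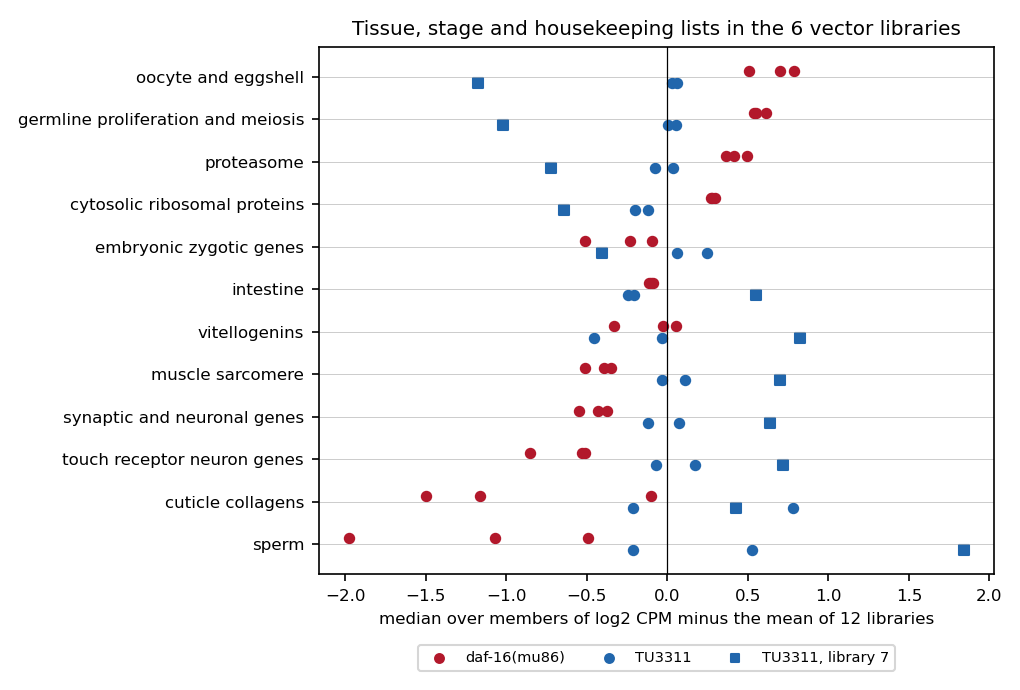
Median over the members of each list of log2 CPM minus the mean of all 12 libraries, in the 6 vector libraries. Red points are daf-16(mu86) libraries, blue circles TU3311 libraries 9 and 11 and blue squares library 7. Library 7 lies farthest from the mutant in every list shown except the cuticle collagens and the embryonic zygotic genes.

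Called genes lay on all nuclear chromosomes, most densely on V and X. On chromosome V 9.25% and on X 8.02% of genes tested were lower, against 4.57% to 5.92% on chromosomes I to IV and 0 of 14 mitochondrial genes. For genes called also without library 7, the lower shares were 2.00% on V, 1.44% on X and 0.922% to 1.29% on I to IV. Neighbouring genes were lower together in 2 places where at least 3 genes in a row were called with all libraries and without library 7. On chromosome IV, 5667547 to 5688273 (WBcel235), T19E7.6, C55C3.4, C55C3.7, C55C3.6 and C55C3.3 had log2 differences from -4.53 to -1.76. The largest of them in expression, C55C3.3, averaged 1.73 ± 0.22 CPM in daf-16(mu86) and 13.55 ± 2.54 CPM in TU3311 (SD, n = 3 per strain; log2 difference -2.97 ± 0.25, SE, adjusted p = 0.000114), and every library of the mutant lay below every library of TU3311.

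The flanking genes bec-1, an autophagy gene, and perm-5 had log2 differences of 0.48 ± 0.18 and 0.50 ± 0.19 and were not called (adjusted p = 0.0864 and 0.0875). On chromosome II, 8533093 to 8545393, WBGene00012175, W01C9.2 and pqn-73 had log2 differences from -5.65 to -2.76. W01C9.2 was at 0.154, 0.0520 and 0.170 CPM in daf-16(mu86) and at 7.67, 3.35 and 7.56 CPM in TU3311 (adjusted p = 0.00126, and 0.00216 without library 7). Whether these places differ in sequence between the strains was not tested.

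Lower genes differed in where the bcat-1 RNAi libraries of the mutant lay. The gene ugt-32 was at 0.455 to 0.58 CPM there and col-183 at 0.172 to 0.354 CPM, far below TU3311 on vector, whereas cla-1 and cpr-2 were above it. The genes were chosen for low values in the mutant vector libraries, so no count of genes in each position is given.

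Counts of called genes moved widely with the libraries that entered. Leaving out library 1, 3 or 5 of the mutant left 52, 88 or 27 lower and 4, 4 or 3 higher genes. Leaving out library 9 or 11 of TU3311 left 1230 or 678 lower and 41 or 39 higher genes. Of 70 called genes among those named by the rule or for losing a call, 46, 33 and 57 lost it without library 1, 3 and 5, and 15, 7 and 9 without library 7, 9 and 11. The naming rule used the call without library 7, so the choice of genes fixed the count of 15 in part. Among all called genes, 226 of 1081 lower and 8 of 22 higher kept the call without library 7. The 12 of the 70 that kept the call in all 17 other settings were dod-22, haf-6, clec-232, scl-20, ugt-32, W01C9.2, ZK355.3, Y68A4A.13, aex-5, mtl-1, ins-22 and fbxa-64. In limma voom with sample weights, libraries 7 and 8 received weights of 0.105 and 0.102, and the other 10 libraries received 0.77 to 2.71.

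**Figure D5:**
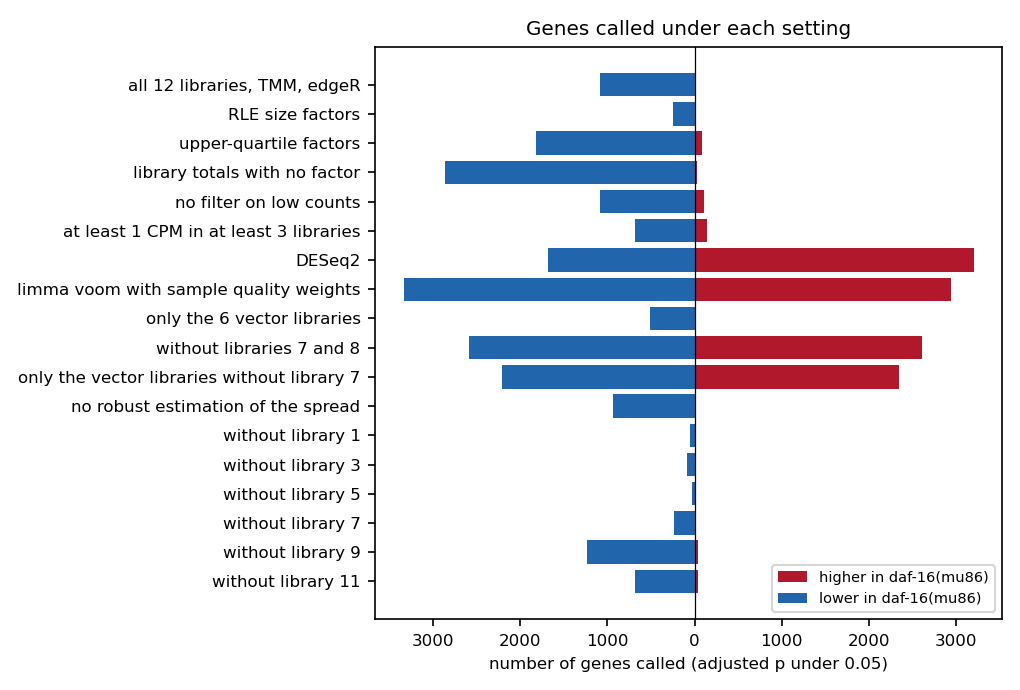
Number of genes called higher (red, right) and lower (blue, left) in daf-16(mu86) under each setting. The settings without libraries 7 and 8, without library 7 among vector libraries only, with sample quality weights and with DESeq2 call 2347 to 3201 genes higher, and the other settings call 3 to 147.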

How the data were processed

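Whole worms gave 12 libraries, prepared with TruSeq RNA v2 reagents as the labels' protocols state. The table of counts, deposited by the authors, has whole numbers for each gene in each sample. According to the submitters' processing notes, featureCounts 1.4.6-p4 and STAR 2.4.1d were used on the build WBcel235, with bcl2fastq 1.8.4. The annotation release and strand setting are not given in the sources used here. The deposited RPKM table was not used. Nothing in the labels says that replicates came from separate cultures, so p-values measure the spread between these samples, which may be technical.

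Of 46748 gene identifiers, 16618 passed the edgeR expression filter by group. The test was the two-sided quasi-likelihood F test of edgeR 4.0.16 (R 4.3.3, limma 3.58.1) with robust dispersion, TMM factors and all 4 groups in 1 fit, with 8 residual degrees of freedom, and the contrast was daf-16(mu86) minus TU3311 on vector. The fit took all 12 libraries as independent. Whether vector and RNAi libraries of a strain shared cultures was not tested. Adjusted p is Benjamini-Hochberg over all genes tested, and genes under 0.05 were called. CPM is counts-per-million scaled by TMM. The SE is the absolute log2 difference over the square root of F, so it carries no information beyond the p. The fit was also run on simulated data with known changes, and no result above rests on that run. There were 17 other settings, DESeq2 1.42.0 and limma voom among them.

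Names and coordinates come from Ensembl release 115 on WBcel235, which held 46449 of the identifiers. The kit does not mark strand, so genes that overlap on opposite strands cannot be told apart. The 53 gene lists, in which 13 entries had no match, were described by counts and medians, with no set test.

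The genes named are those in the labels, then up to 15 per direction with the largest difference among genes called with all libraries and without library 7, with a mean of at least 2 CPM and no overlap of the vector libraries, then members of the DAF-16 lists, and up to 3 members per other list called in both fits. Genes called only with library 7, akt-2, and the member nearest the median of 3 lists were named after their values were seen. The comparison, the lists and the rule were chosen with earlier results of these data known.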

Additional observations from a re-analysis of the deposited data

How the results depend on the processing

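Counts of called genes depended strongly on the setting. Higher and lower genes numbered 14 and 242 with relative log expression factors, 81 and 1816 with upper-quartile factors, 147 and 685 with a filter of at least 1 CPM in at least 3 libraries, 3201 and 1676 with DESeq2, 2943 and 3338 with voom and quality weights, 14 and 512 with the 6 vector libraries only, 2605 and 2589 without libraries 7 and 8, and 2347 and 2210 with the vector libraries without library 7. Library totals gave 2858 lower genes, and no filter gave 108 higher genes. Leaving out 1 library gave 3 to 41 higher and 27 to 1230 lower genes. Genes at the floor of 3 counts in 1 strain numbered 0 with all libraries and 0 to 1 when 1 library was left out, scl-24 without library 9 and scl-20 without library 11, and 1 with library totals. These floor alternatives were chosen after seeing the data. The share of calls that were higher was 2.00% with all libraries, 65.6% with DESeq2 and 50.2% without libraries 7 and 8.

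Reversals occurred only in named genes that were not called. Values were for sip-1 -0.050 with upper-quartile factors, -0.047 with library totals, -0.031 with voom, -0.087 without libraries 7 and 8 and -0.11 in the vector libraries without library 7. For dod-19 the value was 0.0021 without libraries 7 and 8. For dod-24 it was 0.12 with relative log expression factors and 0.12 with DESeq2. For ins-7 it was -0.38 with upper-quartile factors, -0.30 with totals and -0.26 with the CPM filter, against 0.70 with voom, 0.75 in the vector libraries without library 7 and 0.77 without libraries 7 and 8, where alone it was called (adjusted p = 0.0273). For gcy-18 it was -0.22 with upper-quartile factors, -0.19 with totals and -0.11 with the CPM filter. For nuc-1 it was 0.20 with relative log expression factors, 0.20 with DESeq2, 0.13 with voom, 0.076 without libraries 7 and 8 and 0.056 in the vector libraries without library 7.

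When 1 library was left out, the log2 difference ranged from -0.089 to 0.53 for sip-1, -0.67 to 0.46 for aqp-1, -0.91 to 0.00070 for dod-19, -0.64 to 0.18 for dod-20, -0.22 to 0.10 for dod-24, -0.31 to 0.77 for ins-7, -0.059 to 0.21 for gcy-18 and -0.17 to 0.17 for nuc-1. The cause was not tested. No paired analysis was possible because the label numbers 1 to 12 are not shared between the strains. Depth limits genes with few counts in a library.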
